A study of Mus musculus with 2 samples.

Results

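The cells described here are sorted mouse CD4+ T cells that carried transcripts of Id3 and Slamf6 and no transcript of the follicular helper genes Cxcr5, Pdcd1 and Bcl6. They were chosen on measured values. A cell was taken when it held at least 1 unique molecular identifier (UMI, a tag that counts 1 captured transcript) of Id3, at least 1 of Slamf6, at least 1 over the CD3 genes Cd3d, Cd3e and Cd3g, and 0 of Cxcr5, Pdcd1, Bcl6 and the γδ receptor gene Trdc. There were 520 such gated cells among 6859 kept cells, 335 in the Id2-deficient library and 185 in the control library. Levels of the genes of the rule therefore describe the choice and support nothing.

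The study profiled single T helper 17 cells by droplet RNA sequencing in experimental autoimmune encephalomyelitis, a mouse model of multiple sclerosis set off by immunization with myelin antigen in adjuvant. Cells were sorted as CD4+ and YFP+ at the peak of disease. The Id2-deficient library came from Il17Cre/Id2f/f/R26YFP mice and the control library from Il17Cre/R26YFP mice. In both, Cre made under Il17 switches on a YFP reporter at the Rosa26 locus, so YFP marks a history of Il17 activity and not its present state, and the control cells carry the same Cre and reporter. In the Id2f/f animals the same Cre acts on the floxed Id2 alleles. The labels disagree on whether the cells came from spleen, lymph node or both. The sources used here give neither the age nor the number of animals per library.

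With 1 library per genotype there was no replicate, and no test was possible. Ratios and shares are descriptions of these libraries, and the 95% intervals given are exact intervals for counting error only. Levels (CPM) are the UMIs of a gene per 1000000 UMIs of the cells summed. A difference between genotypes cannot be told apart from a difference between libraries.

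Id2 and Id3 are small helix-loop-helix proteins that bind E proteins such as E2A and keep them from DNA. Effector T cells make much Id2, whereas Id3 is typical of naive, memory-like and follicular helper (Tfh) cells. Slamf6 encodes a SLAM family receptor that marks progenitor-like T cells, and Tfh cells carry it too, together with the B cell follicle homing receptor Cxcr5, the inhibitory receptor gene Pdcd1 and the Tfh regulator Bcl6. T cells that recirculate use the transcription factor Klf2, which drives S1pr1, the receptor for the lipid that guides exit from lymphoid tissue.

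The libraries differed in quality as well as in genotype. The Id2-deficient library held 2459 barcodes and 14668624 UMIs, and the control library 4937 barcodes and 33646845 UMIs. Of these barcodes, 525 (21.4%) were removed from the Id2-deficient library, all of them for more than 10% mitochondrial UMIs, against 12 (0.243%) in the control library. Among the removed barcodes, 12 in the Id2-deficient library and 0 in the control library passed the gene rule. The libraries shared 3 barcodes. Gated cells held a median of 6212 UMIs in the Id2-deficient library and 5006 in the control library, with a median mitochondrial share of 4.09% and 1.93%.

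Gated cells took a larger share of the T cells in the Id2-deficient library. They were 335 of 1718 CD3+ Trdc- cells there, a share of 19.5% (95% exact binomial interval 17.7% to 21.5%), against 185 of 3920 or 4.72% (4.08% to 5.43%) in the control library, a ratio of 4.13. When every cell was thinned to 2000 UMIs the shares were 10.2% and 1.81%, lower in both libraries because fewer transcripts of the chosen genes were seen. Id3 itself was detected in 57.2% of Id2-deficient and 14.5% of control CD3+ Trdc- cells, and Slamf6 in 78.9% and 42.1%. Slamf6 without Id3 was about as frequent in both, at 32.9% of Id2-deficient and 33.3% of control cells. Cells with neither gene made up 9.90% of Id2-deficient cells (170) and 52.2% of control cells (2047). As a background level, CD3-negative myeloid cells of the control library, with a median of 9699 UMIs, had an Id3 UMI in 4 of 52 (7.69%) and a Slamf6 UMI in 3 of 52 (5.77%).

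The Id2-deficient library also held more cells that paired Id3 and Slamf6 with a follicular gene, 455 (26.5%) against 161 (4.11%) in the control library. Within all Id3+ Slamf6+ cells, those lacking Cxcr5, Pdcd1 and Bcl6 were therefore the smaller fraction in the Id2-deficient library, at 42.4% (38.9% to 45.9%), and 53.5% (48.1% to 58.8%) in the control library. The same order held in cells of under 5000 UMIs, at 44.1% and 55.8%, and from 5000 to 10000 UMIs, at 45.3% and 54.9%. In cells of at least 10000 UMIs, where a missing transcript means more, it was 31 of 114 (27.2%) in the Id2-deficient library and 27 of 61 (44.3%) in the control library. The Id3+ Slamf6+ cells as a whole were thus more frequent in the Id2-deficient library. At full depth, the ratio between libraries was larger for those with a follicular transcript than for those without. This order was not kept with cells thinned as above. There, 174 of 253 Id3+ Slamf6+ cells lacked the follicular transcripts in the Id2-deficient library and 74 of 110 in the control library, which are similar fractions.

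**Figure D1:**
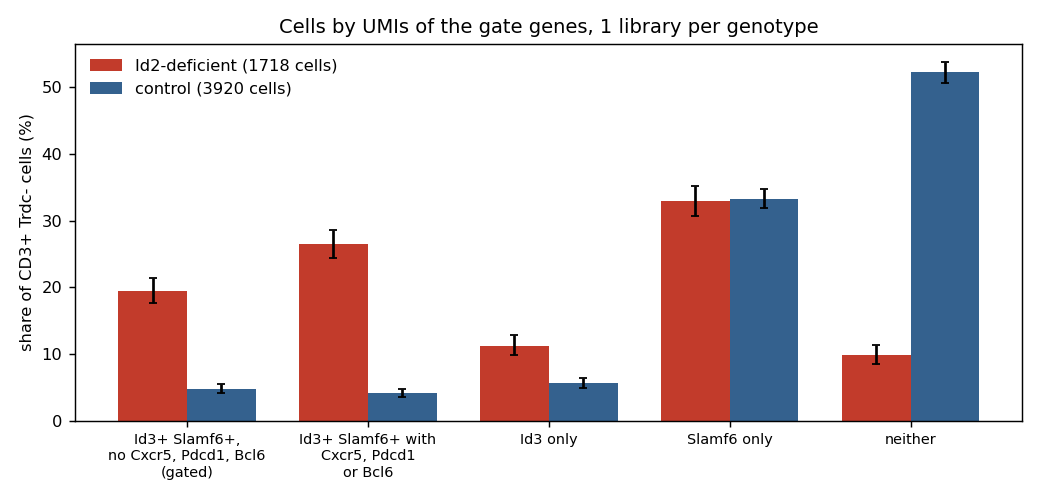
Percent of CD3+ Trdc- cells (y axis) in each class of Id3 and Slamf6 detection, for the Id2-deficient library (1718 cells) and the control library (3920 cells), with bars for the share and whiskers for 95% exact binomial intervals that cover counting error only. Gated cells stand at 19.5% in the Id2-deficient library and 4.72% in the control library.

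The working description of these cells as an Id3 and Slamf6 population marked also by Izumo1r, Cd27 and Myb was borne out in part. The levels were compared in 3 ways: gated cells against Id3- Slamf6- cells of the same library, gated cells against Tfh-gated cells (at least 1 Cxcr5 UMI and at least 1 of Pdcd1 or Bcl6), and gated cells between the libraries. Izumo1r, which encodes folate receptor 4 of activated, anergic and Tfh cells, stood at 151 CPM (135 to 168) in Id2-deficient gated cells, against 342 CPM in Id2-deficient Tfh-gated cells and 141 CPM in Id2-deficient Id3- Slamf6- cells. In the control library it stood at 144 CPM (124 to 166) in gated cells, against 381 CPM in Tfh-gated cells and 27.6 CPM in Id3- Slamf6- cells. Cd27, a costimulatory receptor of the TNF receptor family, was at 114 CPM in Id2-deficient gated cells, against 223 and 123 CPM in the Tfh-gated and Id3- Slamf6- cells of that library, and at 104 CPM in control gated cells, against 207 and 19.7 CPM. Myb, a transcription factor of progenitor and stem-like lymphocytes, was at 39.2, 76.4 and 25.8 CPM in the gated, Tfh-gated and Id3- Slamf6- cells of the Id2-deficient library and at 19.3, 36.03 and 4.53 CPM in those of the control library. All 3 genes were thus higher in Tfh-gated cells than in gated cells in both libraries, except that with cells thinned to 2000 UMIs Izumo1r was at a log2 ratio of 0.23, higher in gated cells, in the control library. They set gated cells apart from Id3- Slamf6- cells by more than 2-fold in the control library alone.

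The Id3- Slamf6- cells of the libraries differed in follicular transcripts. Of 170 in the Id2-deficient library, 110 lacked Cxcr5, Pdcd1 and Bcl6, against 1787 of 2047 in the control library. Against only those cells, the log2 ratio of gated cells was 1.12 for Izumo1r, 0.14 for Cd27 and 1.86 for Myb in the Id2-deficient library, and 3.29, 2.90 and 2.95 in the control library. No cell type name is given to the gated cells.

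**Figure D2:**
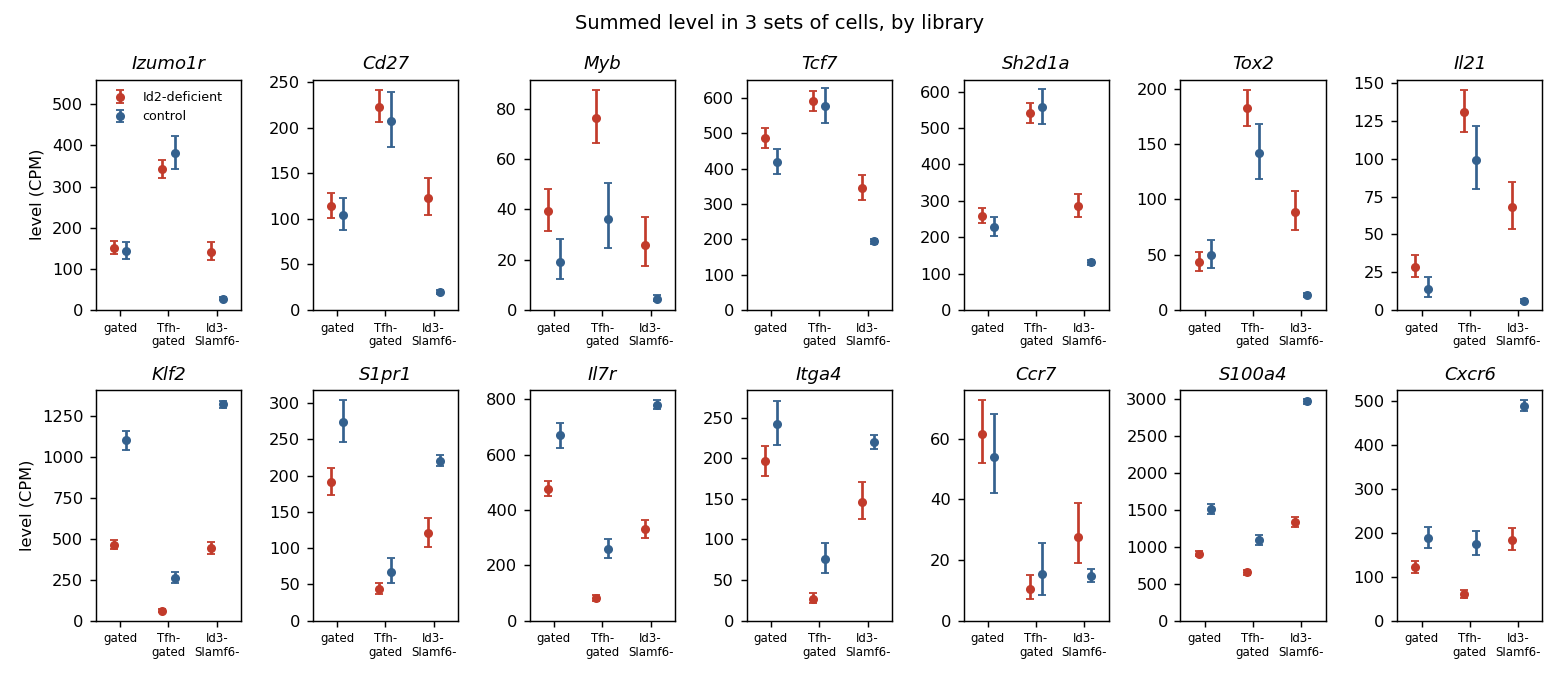
Level in CPM (y axis, from 0, scaled for each gene) of 14 genes in gated, Tfh-gated and Id3- Slamf6- cells (x axis) of the Id2-deficient and control libraries, with points for the summed level and whiskers for 95% exact Poisson intervals that cover counting error only. Izumo1r, Cd27 and Myb sit lower, and Klf2, S1pr1 and Il7r higher, in gated than in Tfh-gated cells in both libraries.

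Against Id3- Slamf6- cells of the same library, gated cells were lower in several effector genes and higher in the lymph node homing receptor gene Ccr7. A gene was called when it differed by more than 2-fold in the same direction in both libraries, among 7841 genes with at least 30 UMIs over the compared cells in each library. Of these, 15 (0.191%) were called higher and 35 (0.446%) lower in gated cells. The median gene stood at a log2 ratio of -0.05 in the Id2-deficient library and 0.07 in the control library.

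Ccr7, the receptor for the chemokines that draw T cells into lymph nodes, was at 61.6 CPM (51.9 to 72.6) in Id2-deficient gated cells and 27.6 CPM (18.8 to 38.9) in Id2-deficient Id3- Slamf6- cells. In the control library it was at 53.9 CPM (42.0 to 68.1) in gated cells and 14.8 CPM (12.8 to 17.1) in Id3- Slamf6- cells. The log2 ratios were 1.16 and 1.86. Over the alternative choices of processing, the ratio ran from 0.12 to 1.22 in the Id2-deficient library and was at least 1.51 in the control library. In Id3- Slamf6- cells without follicular transcripts, Ccr7 was at 41.7 CPM in the Id2-deficient and 14.6 CPM in the control library. Against those cells, gated cells were less than 2-fold higher in the Id2-deficient library. Tcf7, the transcription factor of memory and progenitor T cells, was at 487 CPM in gated and 345 CPM in Id3- Slamf6- cells of the Id2-deficient library and at 417 and 194 CPM in those of the control library, and its partner Lef1 was at 156 and 96.4 CPM and at 149 and 80.7 CPM. The costimulatory receptor Cd28 had log2 ratios of 0.70 and 0.75. Cells with Id3 alone or Slamf6 alone, all without follicular transcripts, shared part of these levels. Ccr7 was at 62.2 and 60.2 CPM in them in the Id2-deficient library and at 34.2 and 40.4 CPM in the control library. Tcf7 was at 335 and 461 CPM and at 282 and 292 CPM, and Lef1 at 105 and 174 CPM and at 102 and 95.8 CPM. In a stem and memory list 19 genes were measured, of which 1 (Ccr7) was called higher and 0 were called lower. The shares of all measured genes were 0.191% and 0.446%. The median ratio of the list on the log2 scale was 0.50 in the Id2-deficient and 0.89 in the control library.

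Other genes that ranked first by their counting bounds were Rflnb, which encodes refilin B, a regulator of filamin, at log2 ratios of 1.39 and 2.01 in the Id2-deficient and control libraries, the intraflagellar transport gene Ift80 at 1.72 and 1.84, the adenosine kinase gene Adk at 1.07 and 1.67, the LIM domain gene Pdlim1 at 1.17 and 0.89, the diacylglycerol kinase gene Dgka at 0.69 and 0.60, and the unnamed loci B630019A10Rik at 2.20 and 2.00 and BE692007 at 0.82 and 0.81. Their levels were low to moderate. B630019A10Rik, the first by this ranking, was at 39.7 CPM in gated and 8.61 CPM in Id3- Slamf6- cells of the Id2-deficient library, and at 13.1 and 3.28 CPM in those of the control library, where 17 UMIs stood behind the gated value.

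Effector genes were among those lower in gated cells. Ccr2, a chemokine receptor that effector T cells use to enter inflamed tissue, was at 31.5 CPM (24.7 to 39.6) in gated and 93.0 CPM (76.3 to 112) in Id3- Slamf6- cells of the Id2-deficient library, and at 112 CPM (94.95 to 132) and 316 CPM (307 to 326) in those of the control library. Ctsw, a cathepsin of cytotoxic lymphocytes, had log2 ratios of -2.08 in the Id2-deficient and -1.65 in the control library. Zeb2, a transcription factor of terminal effector differentiation, had -2.12 and -1.97, and Bhlhe40, a transcription factor that supports cytokine production by pathogenic helper cells, -1.80 and -1.35. Of 21 measured migration genes, 1 (Ccr7) was called higher and 1 (Ccr2) lower, against 0.191% and 0.446% of all measured genes, with medians of 0.06 and -0.25. Of 13 measured T helper 1 and cytotoxic genes, 0 were called higher and 4 (Ccl5, Ctsw, Prdm1 and Zeb2) lower, against 0.446% of all measured genes called lower, with medians of -0.48 and -1.53. Of 17 measured T helper 17 genes, 0 were called higher and 2, the cytokine genes Il17a and Il17f, lower, against the same 0.446%. Il17a was carried by 13 UMIs in Id2-deficient gated cells, at 5.60 CPM, and by 0 in control gated cells.

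Myeloid transcripts differed between these classes in the control library. The summed myeloid list was at 312 CPM in gated and 293 CPM in Id3- Slamf6- cells of the Id2-deficient library, and at 352 and 3417 CPM in those of the control library, where 9 and 10 of 10 genes were detected. The neutrophil genes S100a8 and S100a9, at 1417 and 1471 CPM, made up most of the sum in control Id3- Slamf6- cells, against 11.6 and 16.2 CPM in control gated cells. With at least 3 CD3 UMIs required and cells with a UMI of Cd79a, Cd79b, Ms4a1, Lyz2, S100a8 or S100a9 left out, 14 genes were called higher and 30 lower in gated cells, Ccr2 had log2 ratios of -1.72 in the Id2-deficient and -1.94 in the control library, and the T helper 1 and cytotoxic median was -0.55 and -1.70.

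The follicular genes did not order the same way in both libraries. Of 19 measured members, 2 (Il4 and Sostdc1) were called lower and 0 higher, against 0.446% and 0.191% of all measured genes. The median on the log2 scale was -1.11 in the Id2-deficient and 0.57 in the control library. Il21, the cytokine of Tfh cells, was at 28.4 CPM in gated and 68.0 CPM in Id3- Slamf6- cells of the Id2-deficient library, and at 13.9 and 5.78 CPM in those of the control library. Against the Id3- Slamf6- cells without follicular transcripts, its log2 ratios were 1.03 in the Id2-deficient and 2.71 in the control library. The order of follicular genes in the Id2-deficient library thus depended on which Id3- Slamf6- cells were taken.

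Against Tfh-gated cells, gated cells were higher in genes of lymphocyte exit and recirculation. Several of these genes were also high in other cells without follicular transcripts. Of 6628 genes measured, 67 (1.01%) were called higher and 96 (1.45%) lower in gated cells, and the median gene stood at a log2 ratio of -0.13 in the Id2-deficient and -0.09 in the control library. Of 20 measured migration genes other than those of the rule, 7 were called higher and 2 lower, with medians of 0.88 and 0.78. The 2 classes were chosen on opposite values of the follicular genes. Genes that vary with those genes, in either direction, follow the choice, and the counts are a description. These counts compare 335 gated with 321 Tfh-gated cells in the Id2-deficient library and 185 with 141 in the control library. Median depth was 6212 against 6848 UMIs in the Id2-deficient library and 5006 against 4866 in the control library, and the median mitochondrial share 4.09% against 4.59% and 1.93% against 2.33%.

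Klf2 was at 462 CPM (435 to 491) in gated and 59.8 CPM (51.0 to 69.6) in Tfh-gated cells of the Id2-deficient library, 7.73-fold higher in gated cells. In the control library it was at 1099 CPM (1043 to 1158) in gated and 261 CPM (229 to 296) in Tfh-gated cells, 4.21-fold higher in gated cells. S1pr1 was at 191 CPM (174 to 210) in gated and 43.8 CPM (36.4 to 52.4) in Tfh-gated cells of the Id2-deficient library and at 274 CPM (246 to 304) and 67.7 CPM (51.9 to 86.8) in those of the control library. None of these intervals overlapped between gated and Tfh-gated cells of 1 library, but they leave out the spread between cells. The share of all measured genes with such intervals is not given here. Klf2 in gated cells was near the level of Id3- Slamf6- cells, which was 441 CPM in the Id2-deficient and 1320 CPM in the control library. Against Id3- Slamf6- cells without follicular transcripts, its log2 ratio was -0.69 in the Id2-deficient library, where those cells stood at 743 CPM, and -0.37 in the control library. S1pr1 was at 198 and 234 CPM in those cells of the Id2-deficient and control libraries. Cells with Slamf6 alone and no follicular transcript held 593 and 1332 CPM of Klf2 and 196 and 244 CPM of S1pr1.

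The region just upstream of Klf2 is printed because Klf2 is the transcription factor at the centre of this group, and that of Slamf6 because it is 1 of the genes that define the cells. Both run from 250 to 31 bases before the start of the gene in RefSeq annotation on GRCm38.p6, chr8:72318812-72319031 and chr1:171917212-171917431, both on the plus strand and 220 bases long, upstream of the transcribed part of each gene. Capitals mark an exact match to CTAAATTTAG, a form of the motif bound by MEF2 factors, which are known activators of Klf2.
Klf2: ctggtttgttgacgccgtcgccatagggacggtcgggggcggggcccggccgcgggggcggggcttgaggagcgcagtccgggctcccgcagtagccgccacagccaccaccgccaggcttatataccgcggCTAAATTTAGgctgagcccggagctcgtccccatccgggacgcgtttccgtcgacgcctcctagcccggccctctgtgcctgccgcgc
Slamf6: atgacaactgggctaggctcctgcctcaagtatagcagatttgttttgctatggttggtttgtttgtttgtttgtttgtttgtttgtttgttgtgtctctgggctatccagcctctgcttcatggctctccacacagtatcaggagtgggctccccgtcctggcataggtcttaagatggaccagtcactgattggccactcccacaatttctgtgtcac
The match starts 118 bases before the annotated start of Klf2, and its letters read the same on both strands. The MEF2 motif, searched on both strands, is present in 138 of 32851 mouse RefSeq windows of the same length (0.420%). The E-boxes CAGGTG and CAGCTG, the kind of site E proteins bind, were searched on both strands and had 0 matches in either window, against 24.9% of all windows with at least 1 of them. These matches describe letters and show no binding.

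Il7r, the receptor for the survival cytokine of naive and memory T cells, was at 477 CPM (449 to 506) in gated and 80.4 CPM (70.2 to 91.7) in Tfh-gated cells of the Id2-deficient library and at 670 CPM (626 to 716) and 260 CPM (228 to 295) in those of the control library. In Id3- Slamf6- cells without follicular transcripts Il7r was at 528 and 836 CPM in the Id2-deficient and control libraries. With Slamf6 alone and no follicular transcript it was at 640 and 949 CPM. Ccr7 was 5.87-fold higher in gated than in Tfh-gated cells in the Id2-deficient library and 3.53-fold higher in the control library. Itga4, the integrin chain that T cells use to cross inflamed vessels of the nervous system, was 7.31-fold and 3.22-fold higher. Also called higher were the sphingosine phosphate receptor gene S1pr4 and Selplg, which encodes the selectin ligand PSGL-1. Called lower were the chemokine receptor gene Cxcr4, at 17.7 CPM in gated and 81.9 CPM in Tfh-gated cells of the Id2-deficient library and at 20.8 and 69.9 CPM in those of the control library, and Rgs10, which encodes a brake on G protein signalling, at 422 and 1024 CPM and at 373 and 1186 CPM.

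By the ranking of counting bounds the higher genes included, besides Klf2 and S1pr1, the locus Gm2682 at 6.23-fold in the Id2-deficient and 6.57-fold in the control library, Arl4c, which encodes a small GTPase, at 3.57 and 4.11, Pdlim4, of the same LIM domain family as Pdlim1, at 30.9 (10.2 to 153) and 8.70 (2.75 to 44.1), each against 3 UMIs in Tfh-gated cells, the glucocorticoid-induced gene Tsc22d3 at 6.28 and 3.87, and Rasgrp2, which encodes an activator of Rap1 in integrin adhesion, at 5.62 and 3.48. Of 11 measured effector and S100 genes, 4 (Lgals3, Vim, Crip1 and Ahnak) were also called higher than in Tfh-gated cells and 0 lower, against 1.01% of all measured genes called higher, with medians of 0.88 and 0.83. Vim, the intermediate filament gene vimentin, was at 429 CPM in gated and 171 CPM in Tfh-gated cells of the Id2-deficient library and at 1188 and 519 CPM in those of the control library. Of 9 measured T helper 1 and cytotoxic genes, 2 were called higher against the same 1.01%, the cytokine receptor gene Il18r1 and the transcription factor gene Runx3.

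Follicular genes that the rule did not use were lower in gated cells. Of 18 measured, 12 were called lower and 0 higher, against a background of 1.45% of genes called lower, with medians of -1.94 and -1.79. The cells were chosen to lack Cxcr5, Pdcd1 and Bcl6, and the Tfh-gated cells to carry them, so genes detected together with those 3 follow the choice, and the count is a description. Il21 was at 28.4 CPM in gated and 131 CPM in Tfh-gated cells of the Id2-deficient library and at 13.9 and 99.4 CPM in those of the control library. Il4, the cytokine that Tfh cells give to B cells, was at 5.60 and 73.9 CPM and at 2.31 and 96.1 CPM. Sh2d1a, which encodes SAP, the adaptor that signals below Slamf6, was at 259 CPM (239 to 281) in gated and 541 CPM (513 to 569) in Tfh-gated cells of the Id2-deficient library and at 227 CPM (202 to 255) and 558 CPM (511 to 608) in those of the control library.

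Tox2, a transcription factor of Tfh cells, was at 43.1 and 182 CPM in the gated and Tfh-gated cells of the Id2-deficient library and at 49.3 and 142 CPM in those of the control library, and Ikzf2, which encodes Helios, at 38.8 and 233 CPM and at 29.3 and 145 CPM. By counting bounds the lowest genes included Nrgn, which encodes the calmodulin-binding protein neurogranin, 15.9-fold lower in gated cells of the Id2-deficient library and 50.3-fold lower in those of the control library, where 2 UMIs gave an interval of 13.4 to 424, the keratin gene Krt83, 30.2 and 15.6, the transcription factor gene Cebpa, 17.7 and 16.3, the Tfh transcription factor gene Ascl2, 30.3 (10.1 to 149, from 3 UMIs) and 9.45, and the ankyrin repeat gene Asb2, 6.62 and 5.99. Cxxc5 and Ier5l had 0 UMIs in control gated cells, which allows up to 2.31 CPM, and were 25.2-fold and 15.3-fold lower in Id2-deficient gated cells. Tcf7 differed little, at 487 and 590 CPM in the gated and Tfh-gated cells of the Id2-deficient library and at 417 and 578 CPM in those of the control library.

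**Figure D3:**
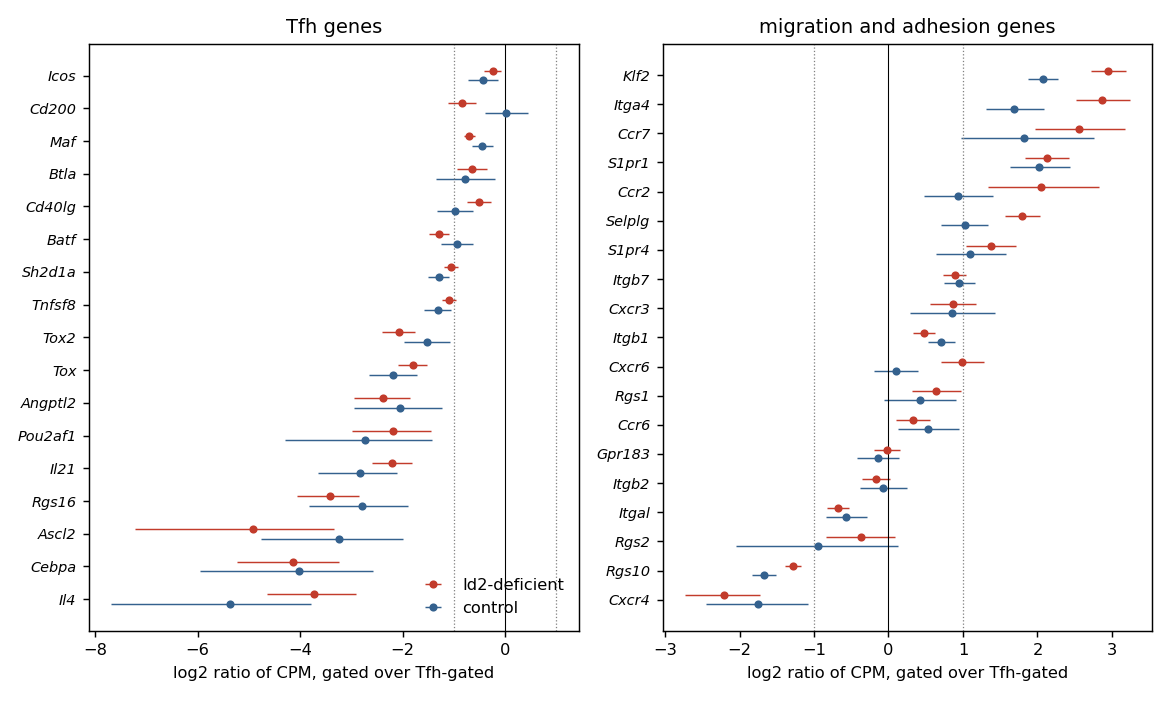
Log2 ratio of the level in gated to that in Tfh-gated cells (x axis) for follicular and migration genes (y axis), with a point for each of the Id2-deficient and control libraries, whiskers for 95% exact intervals that cover counting error only, and dotted lines at a 2-fold difference. Klf2, S1pr1, Ccr7 and Itga4 lie above a 2-fold difference in both libraries and Il21, Il4 and Ascl2 below it.

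The values of cells just inside and just outside the threshold are given as a description. Id3+ Slamf6+ cells just outside the rule, with 1 UMI over Cxcr5, Pdcd1 and Bcl6, lay between the gated cells and those with at least 2. There were 335, 190 and 265 cells with 0, 1 and at least 2 such UMIs in the Id2-deficient library, and 185, 71 and 90 in the control library. Klf2 was at 462, 267 and 122 CPM along this order in the Id2-deficient library and at 1099, 774 and 347 CPM in the control library. Il7r was at 477, 287 and 119 CPM and at 670, 383 and 249 CPM. Izumo1r ran the other way, at 151, 261 and 390 CPM in the Id2-deficient library and at 144, 230 and 297 CPM in the control library, and Sh2d1a at 259, 392 and 493 CPM and at 227, 418 and 486 CPM. A cell with a single missed transcript can change class, so these averages do not show whether single cells are graded or fall into separate populations.

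The Id3 and Slamf6 side of the rule was as thin. Id3 was held by exactly 1 UMI in 135 of 335 Id2-deficient and 117 of 185 control gated cells, and both genes by exactly 1 UMI in 45 and 52. In the cells with both at 1 UMI, Izumo1r was at 94.1 CPM in the Id2-deficient and 133 CPM in the control library. In those with at least 2 UMIs of both, 146 and 38 cells, it was at 213 and 205 CPM, and Klf2 was at 410 and 974 CPM, against 615 and 1264 CPM in cells with both at 1.

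Gated cells were mixed with respect to Klf2. A Klf2 UMI was found in 193 of 335 Id2-deficient gated cells (57.6%, 52.1% to 63.0%) and in 142 of 185 control gated cells (76.8%). This division was chosen after the values were seen. In Klf2+ gated cells Izumo1r was at 108 CPM in the Id2-deficient and 69.9 CPM in the control library, and in Klf2- gated cells at 212 and 526 CPM. S1pr1 was at 278 and 313 CPM in Klf2+ cells of the Id2-deficient and control libraries and at 67.0 and 75.8 CPM in Klf2- cells. Il7r was at 547 and 766 CPM in Klf2+ cells and at 378 and 175 CPM in Klf2- cells. The calcium-binding gene S100a4, typical of activated migrating T cells, was at 1285 and 1729 CPM in Klf2+ cells and at 364 and 346 CPM in Klf2- cells.

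Tcf7 was at 442 and 372 CPM in Klf2+ gated cells of the Id2-deficient and control libraries and at 551 and 654 CPM in Klf2- gated cells, Sh2d1a at 210 and 194 CPM and at 330 and 398 CPM, and Tox2 at 30.04 and 36.8 CPM and at 61.8 and 114 CPM. The gated cells without Klf2 thus held more of the transcripts that were higher in Tfh-gated cells, although they lacked Cxcr5, Pdcd1 and Bcl6. With cells thinned to 2000 UMIs, S1pr1 was detected in 48.5% of Klf2+ and 16.3% of Klf2- gated cells of the Id2-deficient library, and in 49.2% and 17.5% in the control library. Klf2 was detected in 21.2% of Izumo1r+ and 45.1% of Izumo1r- gated cells of the Id2-deficient library, and in 45.7% and 76.6% in the control library.

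**Figure D4:**
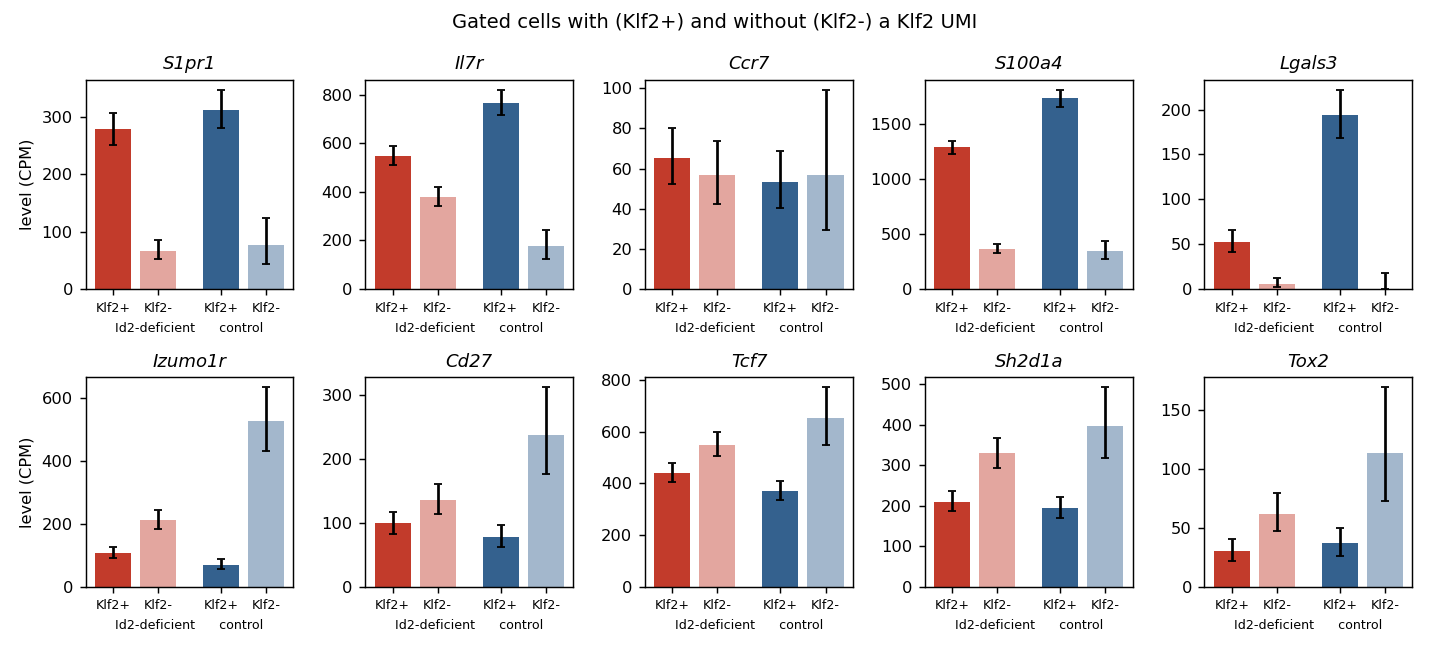
Level in CPM (y axis, from 0, scaled for each gene) of 10 genes in Klf2+ and Klf2- gated cells (x axis) of the Id2-deficient and control libraries, with bars for the summed level and whiskers for 95% exact Poisson intervals that cover counting error only. S1pr1 and S100a4 are higher and Izumo1r lower in Klf2+ cells of both libraries.

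The mitochondrial share and depth moved with the same genes. In Id2-deficient gated cells, Izumo1r was at 74.1 CPM in cells with 2% to 4% mitochondrial UMIs and at 239 CPM in cells above 4%, and S100a4 at 1249 and 472 CPM. In control gated cells, Izumo1r was at 57.4 CPM in the 105 cells under 2% and at 350 CPM in the 76 cells from 2% to 4%. By depth, from under 5000 over 5000 to 10000 to at least 10000 UMIs, Izumo1r was at 312, 131 and 110 CPM in Id2-deficient gated cells and at 377, 98.7 and 15.9 CPM in control gated cells. The part of cell quality in the mixture was not tested.

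Between genotypes, Id2 was the check of the label. It was at 8.19 CPM (4.93 to 12.8) in Id2-deficient gated cells, carried by 19 UMIs, and at 190 CPM (167 to 216) in control gated cells, carried by 247 UMIs, a log2 ratio of -4.54 (-5.29 to -3.86). In Tfh-gated cells it was at 0 UMIs in the Id2-deficient library and at 108 CPM in the control library, and in Id3- Slamf6- cells at 37.0 and 402 CPM. The sources used here do not name the floxed exons, so the transcript end that was counted checks the label only if it is lost with them. Of 7863 genes measured, 270 (3.43%) were more than 2-fold higher and 172 (2.19%) more than 2-fold lower in Id2-deficient gated cells, with a median log2 ratio of -0.04.

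Genes of effector differentiation were lower in Id2-deficient gated cells. Of 12 measured effector and S100 genes, 0 were called higher and 5 (S100a6, Lgals3, Anxa1, Anxa2 and Vim) lower, with a median of -0.90, against 2.19% of all measured genes called lower. Lgals3, which encodes the lectin galectin-3, was at 32.8 CPM (25.8 to 41.0) in Id2-deficient and 163 CPM (141 to 186) in control gated cells. Among the genes first by counting bounds, the neuronal stathmin gene Stmn2 had a log2 ratio of -4.40, the interferon-induced membrane genes Ifitm2 and Ifitm3 -3.88 and -2.44, Ermn, which encodes the cytoskeletal protein ermin, -2.55, and the annexin genes Anxa1 and Anxa2 -2.31 and -1.91. Of 12 measured T helper 1 and cytotoxic genes, 3 (Nkg7, Ccl5 and Ctsw) were called lower and 1 (Gzma) higher, against 2.19% and 3.43% of all measured genes. The 146 Gzma UMIs in the Id2-deficient library came from 5 cells. Klf2 had a log2 ratio of -1.25 (-1.37 to -1.13). It stood lower in the Id2-deficient library in the other cells too, and was not particular to gated cells. In Tfh-gated cells it was at 59.8 CPM in the Id2-deficient and 261 CPM in the control library, and in Id3- Slamf6- cells at 441 and 1320 CPM.

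Several of these lower values moved with the mitochondrial share, whereas Klf2 stayed lower in Id2-deficient gated cells. The log2 ratio of Klf2 ran from -1.77 to -0.97 over the alternatives. In cells with 2% to 4% mitochondrial UMIs, Klf2 was at 539 CPM in Id2-deficient and 1114 CPM in control gated cells. In the 154 Id2-deficient and 76 control gated cells with 2% to 4% mitochondrial UMIs, Lgals3 had a log2 ratio of 1.64 (0.43 to 3.14) and Ifitm3 of 2.59 (0.64 to 5.68), and the median of the effector and S100 list was 0.21, all on the other side of 0. Stmn2, at 0.85, Ermn, at 0.27, Ifitm2, at -0.56, and Anxa1, at -0.41, had intervals that included 0 there. Id2 was at -3.17 (-4.38 to -2.07) and Anxa2 at -0.71 (-1.36 to -0.03). In cells at or below the median mitochondrial share of their own library, 168 Id2-deficient and 93 control, Lgals3 was at -2.10 and the list median at -0.83, and above it, in 167 and 92 cells, at -2.66 and -0.81, with Ermn at 0.16. For Lgals3 and the list median, a common window of mitochondrial share and the rank within the library thus gave opposite directions, and the lower effector genes cannot be told apart from the difference in mitochondrial share between the libraries.

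Genes higher in Id2-deficient gated cells included those of the heat shock and interferon responses. Hspa1a and Hspa1b, which encode inducible HSP70 chaperones, were at 351 and 499 CPM in Id2-deficient gated cells and at 80.9 and 137 CPM in control gated cells. They stood higher in the Id2-deficient library in the other cells too, at 331 and 432 CPM in its Id3- Slamf6- cells and at 107 and 146 CPM in those of the control library. Of 16 measured stress genes, 4 (Fosb, Jun, Hspa1a and Hspa1b) were called higher and 0 lower, against 3.43% and 2.19% of all measured genes, with a median of 0.07. Of 19 measured interferon genes, 4 (Ifit1, Ifit3, Usp18 and Oasl2) were called higher and 3 (Ifitm1, Ifitm2 and Ifitm3) lower, against the same shares. Iigp1, which encodes an interferon-inducible GTPase, was at 87.5 CPM in Id2-deficient and 14.6 CPM in control gated cells.

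Also high by counting bounds were Sdc4, a heparan sulphate proteoglycan gene that had 67 UMIs in Id2-deficient and 3 in control gated cells (log2 ratio 3.64, 2.03 to 5.96), the mitochondrial gene mt-Co3 at 1.63, the mitochondrial leucyl-tRNA synthetase gene Lars2 at 1.79, and the loci 5830411N06Rik and AY036118 at 3.30 and 2.30. UMIs of mt-Co3 are part of the mitochondrial share, which had a median of 4.09% in Id2-deficient and 1.93% in control gated cells. Its log2 ratio ran from 0.85 to 1.71 over the alternatives.

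The stem and memory and follicular lists had few called members between genotypes, and their values moved with the mitochondrial share. Of 20 measured stem and memory genes, 2 (Myb and Il6st) were called higher and 1 (Klf2) lower in Id2-deficient gated cells, against 3.43% and 2.19% of all measured genes, with a median of 0.22, and of 13 measured follicular genes 1 (Il21) was called higher and 0 lower, with a median of 0.28. Myb was at 39.2 CPM in Id2-deficient and 19.3 CPM in control gated cells, a log2 ratio of 1.03 (0.37 to 1.73), which was 0.02 (-0.98 to 1.14) in cells with 2% to 4% mitochondrial UMIs. Over all gated cells, Tcf7 was at 487 and 417 CPM, Lef1 at 156 and 149 CPM, Izumo1r at 151 and 144 CPM and Cd27 at 114 and 104 CPM in Id2-deficient and control gated cells. That closeness held over all gated cells and not within a common mitochondrial window. In cells with 2% to 4% mitochondrial UMIs, Izumo1r was at 74.1 CPM in Id2-deficient and 350 CPM in control gated cells, a log2 ratio of -2.24 (-2.65 to -1.84), Cd27 at 84.8 and 194 CPM, a log2 ratio of -1.20, and Tcf7 and Lef1 had log2 ratios of -0.52 and -0.72. The stem and memory median was -0.49 there, and it was 0.46 in cells at or below and -0.10 in cells above the median mitochondrial share of their library. In cells of at least 10000 UMIs, Izumo1r was at 110 CPM in Id2-deficient and 15.9 CPM in control gated cells.

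**Figure D5:**
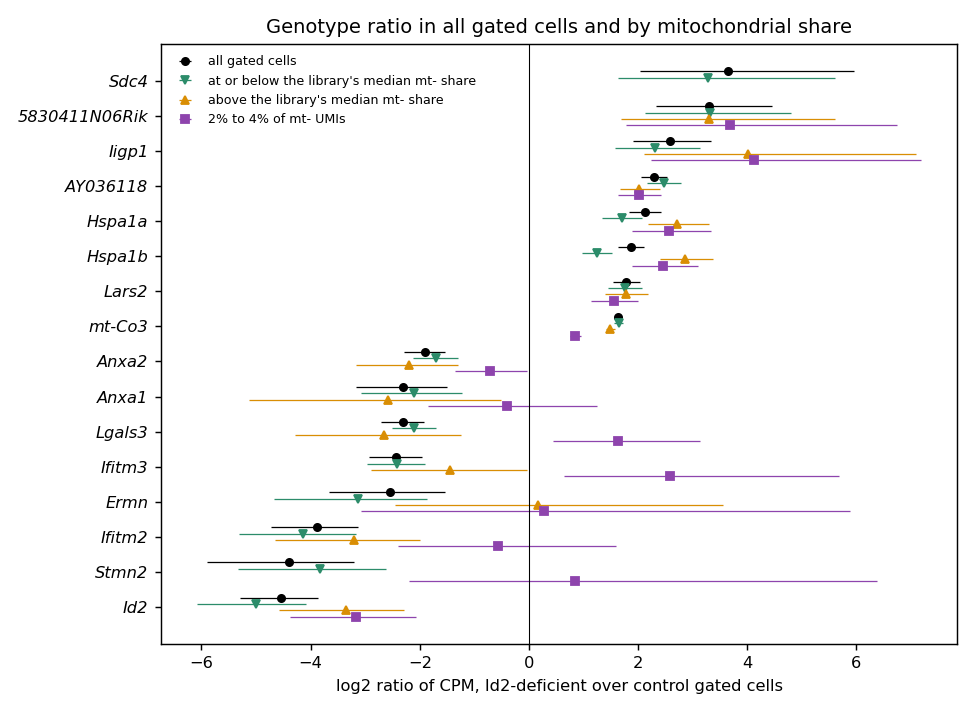
Log2 ratio of Id2-deficient to control gated cells (x axis) for selected genes (y axis) over all gated cells and in sets chosen by mitochondrial share. The sets are cells at or below the median share of their own library, cells above it, and cells with 2% to 4% mitochondrial UMIs. Sets cut at the median of each library are not matched in share between libraries. Points give the ratio and whiskers 95% exact intervals that cover counting error only. A point is missing where a library had 0 UMIs. Id2 lies below 0 in each set of cells, whereas Lgals3, Ifitm3 and Stmn2 lie above 0 in cells with 2% to 4% mitochondrial UMIs.

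Gated cells carried T cell receptor transcripts in nearly every cell, and some carried markers of other cells, B cell transcripts above all in the Id2-deficient library. The β chain gene Trbc2 was detected in 331 of 335 Id2-deficient and 185 of 185 control gated cells, and Cd4 in 255 and 117. The summed γδ T cell list was at 16.4 CPM in Id2-deficient and 19.3 CPM in control gated cells. Foxp3, the regulatory T cell factor, had 3 UMIs in 1 Id2-deficient cell and 2 in 1 control cell, and the thymocyte genes Rag1, Rag2 and Dntt were at 0, with 3 and 2 of the 6 genes of that list detected in Id2-deficient and control gated cells and sums of 6.03 and 7.70 CPM. The summed natural killer list was at 78.9 CPM in Id2-deficient and 11.6 CPM in control gated cells, with Ncr1 and Eomes at 0. A single cell held 71.6% of the Id2-deficient sum. Zbtb16, the factor of natural killer T cells, had 9 UMIs in the Id2-deficient and 2 in the control library. The summed B cell list was at 460 CPM in Id2-deficient and 138 CPM in control gated cells, with 10 and 3 of 10 genes detected. In the Id2-deficient library it was at 312 CPM in Tfh-gated and 362 CPM in Id3- Slamf6- cells. Of 5 measured B cell genes, 5 were called higher in Id2-deficient than in control gated cells, against 3.43% of all measured genes. The list held 749 and 170 UMIs of the immunoglobulin gene Ighm in 247 and 88 cells, while Cd79a had 61 UMIs in 3 Id2-deficient cells and 0 in control cells. The summed myeloid list was at 312 and 352 CPM, with 9 of 10 genes detected in each library and Itgam at 0. Cd8a had 11 UMIs in 2 Id2-deficient cells and 6 in 1 control cell. Under the same stricter choice of cells, without those 6 B cell and myeloid genes, 322 genes were more than 2-fold higher and 164 lower in Id2-deficient gated cells.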

How the data were processed

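Per the file headers, the authors deposited raw UMI counts per gene and barcode (32285 genes) made with Cell Ranger 5.0.1. The submitters' processing notes give version 1.3 and build mm10, and the labels name a v2 kit, which was not reconciled. Barcodes with at least 200 genes and at most 10% mitochondrial (mt-) UMIs were kept. Doublets were not removed in the main analysis, because Scrublet's automatic threshold marked 8 Id2-deficient and 2 control cells and had not worked. From the deposited counts, UMIs were summed over the cells of a class and scaled to 1000000 (CPM).

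Shares have Clopper-Pearson intervals, levels exact Poisson intervals and ratios exact conditional binomial intervals, all at 95% and for counting error only. A gene was measured with at least 30 UMIs over the compared cells and called past 2-fold, in both libraries for comparisons within a library. A count of 0 allows up to 3 UMIs.

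The genes named were the 10 highest and 10 lowest (against Id3- Slamf6- cells) or 8 and 8 (other comparisons) by the counting bound nearer to no difference, without genes of the rule, receptor segments and genes with at least 25% of their UMIs in 1 cell, and up to 2 highest and 2 lowest members of each list described, besides the label markers and Id2. Some genes the rule would name are not reported here. Other members were named after their values were seen. The members and the 31 gene lists were chosen with earlier results of these data known. Python 3.11.15, numpy 2.4.6, scipy 1.17.1, pandas 2.3.3 and scanpy 1.11.5 were used, and the ratio code was tested on simulated data. Promoter sequences are from the RefSeq table on GRCm38.p6.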

Additional observations from a re-analysis of the deposited data

Results flagged for a closer look

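The genes below had ratios of opposite sign in the 2 libraries with intervals that did not include 0 in either. The differences between libraries were not tested. For gated against Id3- Slamf6- cells, the log2 ratio of Ikzf2 was -1.66 (-2.05 to -1.27) in the Id2-deficient and 0.97 (0.43 to 1.48) in the control library. Il21 stood at -1.26 (-1.75 to -0.77) and 1.26 (0.43 to 2.02), Tox2 at -1.04 (-1.45 to -0.63) and 1.89 (1.46 to 2.32), and Il7r at 0.53 (0.36 to 0.70) and -0.22 (-0.32 to -0.12). For gated against Tfh-gated cells, 5830411N06Rik stood at 1.80 (1.35 to 2.27) and -2.24 (-3.50 to -1.13), and Bhlhe40 at -0.62 (-1.20 to -0.06) and 1.03 (0.41 to 1.69), in the Id2-deficient and control libraries.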

How the results depend on the processing

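No paired analysis was possible because each genotype has 1 library and no replicate numbers, and for the same reason no replicate could be left out. Over 15 alternatives, 59 shares and counts of called genes kept within their limit and 26 moved. With cells thinned to 2000 UMIs the gated shares were 10.2% in the Id2-deficient and 1.81% in the control library (ratio 5.65), and 60 genes were called lower than in Id3- Slamf6- cells, 16 higher and 21 lower than in Tfh-gated cells, and 93 higher and 86 lower than in control gated cells. With at least 2 Id3 UMIs the shares were 11.6% and 1.73% (ratio 6.71), with 23 genes higher than in Id3- Slamf6- and 36 higher than in Tfh-gated cells. With at least 1 UMI per gene the higher and lower counts were 331 and 611, 457 and 685, and 2237 and 1382 in the 3 comparisons, and with at least 100 UMIs 4 and 6, 35 and 35, and 60 and 53. Against Id3- Slamf6- cells without follicular transcripts, 37 genes were higher.

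Reversed signs included these, which is not a full list of sign changes. Thinned, against Id3- Slamf6- cells, the log2 ratio was 0.18 for F2r (control), 0.14 and -0.58 for Il21 (Id2-deficient and control) and -0.45 for Pdlim1 (Id2-deficient), and against Tfh-gated cells 0.23 for Izumo1r (control), 0.23 for the anergy list median (control) and 0.32 and 0.039 for the inhibitory receptor list (Id2-deficient and control), which was at 0.45 and 0.22 with at least 100 UMIs. Against Id3- Slamf6- cells without follicular transcripts, Il21 was at 1.03, Tox2 at 0.55 and the follicular median at 0.37 in the Id2-deficient library. Klf2, slightly above 0 in the main comparison, was at -0.69 there. Between genotypes, in alternatives chosen after seeing the data, cells with 2% to 4% mt- UMIs gave 0.27 for Ermn, 2.59 for Ifitm3, 1.64 for Lgals3, 0.85 for Stmn2 and 0.21 for the effector and S100 median, and cells above the median mt- share 0.16 for Ermn. Cells with 2% to 4% mt- UMIs also changed the sign of S100a4, to 0.91, and Cxcr6, to 1.23. Izumo1r, Cd27, Tcf7 and Lef1 went below 0 in them, to -2.24, -1.20, -0.52 and -0.72, and so did the stem and memory median. The cause was not tested.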

Other observations

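Of 20 measured cell cycle genes, 0 were called in either direction against Id3- Slamf6- or Tfh-gated cells. Of all measured genes, 0.191% were called higher and 0.446% lower against Id3- Slamf6- cells, and 1.01% and 1.45% against Tfh-gated cells. A count of 0 of 20 is near those shares. Against Tfh-gated cells their median was -0.55 in the Id2-deficient and -0.25 in the control library. Mki67, a marker of cycling cells, was at 81.9 CPM in gated and 93.1 CPM in Tfh-gated cells of the Id2-deficient library and at 64.7 and 90.6 CPM in those of the control library. Between genotypes, 2 cell cycle genes (Ube2c and Cenpf) were called higher and 2 (Mcm3 and Mcm5) lower in Id2-deficient gated cells, against 3.43% and 2.19% of all measured genes, with a median of -0.52. Of 13 measured glycolysis genes, Pfkl was called lower than in Tfh-gated cells and 0 were called higher, against 1.45% and 1.01% of all measured genes. Medians of these genes were -0.78 in the Id2-deficient and -0.14 in the control library. Their summed level was 2682 CPM in gated and 4147 CPM in Tfh-gated cells of the Id2-deficient library and 3441 and 3933 CPM in those of the control library.

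Among genes of T cell receptor signalling, Egr1, Egr3, Irf4 and Tnfrsf9 were called higher and Bhlhe40 lower in Id2-deficient gated cells, of 16 measured (median 0.40), against 3.43% and 2.19% of all measured genes. Egr1, an immediate early transcription factor gene, was at 81.5 CPM in Id2-deficient and 32.3 CPM in control gated cells. In the inhibitory receptor list, Lag3, Cd160 and the ligand gene Pdcd1lg2 were called lower than in Tfh-gated cells, of 8 measured, against 1.45% of all measured genes. The median of that list reverses with thinning and with a higher minimum of UMIs. Lag3 was at 18.1 CPM in gated and 37.7 CPM in Tfh-gated cells of the Id2-deficient library and at 10.8 and 26.2 CPM in those of the control library.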
